A study of Mus musculus with 100 samples.

Results

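Whole intra-abdominal fat of mice aged 19 weeks was compared between 3 libraries labelled Gps2 wild type and 3 labelled adipocyte knockout, 6 of the 100 samples of the series. They were chosen by their titles and columns, in a table whose name gives 12 weeks of high fat diet; no measured value entered the choice. The study asks what adipocytes lose or gain when they lack GPS2. The strain label, Adipoq-Cre-Gps2flox/flox, is the same for all 6 libraries, so both groups are described as carrying the Cre and the floxed allele, and the genotype stands only in the titles. Neither label nor title gives the sex, a control for the Cre, or separate animals for the replicates. The p-values therefore cover only how far these libraries lie apart, and that scatter may be technical. Adipoq-Cre is driven by the promoter of the adiponectin gene, which is active in fat cells, so vessel, immune and stromal cells of the same tissue are not the cells it targets. In RNA of a whole tissue, fewer cells of a type and less RNA per cell cannot be told apart.

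GPS2 is a small subunit of the corepressor complex built on NCoR or SMRT with the deacetylase HDAC3. The complex is recruited to chromatin by nuclear receptors and other transcription factors and keeps their target genes low. GPS2 is also known as an inhibitor of the ubiquitin-conjugating enzyme UBC13 in the cytosol and for a role in the transcription of mitochondrial genes in the nucleus. In fat it has been studied for its part in inflammation, lipid storage and insulin signalling.

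Values are read counts per Ensembl transcript over a size factor of each library, with 1 transcript taken per gene, and are listed below in the order of libraries 1, 2 and 3. Over the chosen transcripts each library held between 29445539 and 58775628 reads. Of 28569 genes, 17687 had a mean of 10 or more and were tested with limma on log2(value + 1). Every change below is the log2 fold change of knockout minus wild type with its standard error, on that scale. With Benjamini-Hochberg adjustment no gene passed 0.05 in either direction (0.0% higher and 0.0% lower), and the smallest adjusted p, shared by 38 genes, was 0.286. At an unadjusted p under 0.05 there were 613 higher genes (3.47%) and 1012 lower (5.72%). On the reads recovered from the values, edgeR called 0 genes, with 791 higher (4.47%) and 906 lower (5.12%) at an unadjusted p under 0.05. DESeq2 called 213 genes higher (1.2%) and 322 lower (1.82%), and gave no adjusted p for 2236. Of the 213, 63 were more than 10 times as high in knockout 2 as in wild type 2, wild type 3 and knockout 1. The values of all 3 knockout libraries lay above those of all 3 wild-type libraries for 1293 genes (7.31%) and below them for 1615 (9.13%). These percentages are the background against which the counts of each gene list below are set. Leaving out libraries can only keep or raise a count without overlap, in a list and in all genes. Such counts below are therefore not a separate test. Of all genes tested 46.9% were higher and 53.1% lower, with a median of -0.03.

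Some libraries stood apart before any comparison. Wild type 1 held transcripts of sperm cells, which wild type 2, wild type 3 and knockout 1 held at 0 or under 2: Prm2, a protamine that packs sperm DNA, stood at 19223, 1.66 and 0 in the wild-type libraries and at 0, 1424 and 163 in those labelled knockout. Knockout 2 and 3 held transcripts of the epididymis, the duct that this fat pad surrounds. Lcn9, an epididymal lipocalin, was at 0, 0 and 0 and at 0, 14282 and 4642, and Cst11, a cystatin of the same duct, at 0, 0 and 0 and at 0, 7216 and 2535. Of 19 measured genes on a list for both organs, 19 reached a value of 50 in knockout 2, 17 in knockout 3, 6 in wild type 1 and 1 in each of the other 3. The list's values summed to 39701, 124 and 70.5 in wild type and to 149.8, 120382 and 36299 in knockout. Genes of epithelium were also highest in knockout 2, where Cldn7, a tight junction claudin, reached 1053 against 3.07, 0.828 and 0 in wild type. Lipid-associated macrophage genes followed no group: Gpnmb, one of their markers, stood at 2372, 654 and 17779 in wild type and at 12412, 1376 and 759 in knockout, so that wild type 3 and knockout 1 were the high libraries. Protamine and Gpnmb values are given after they were seen. In brackets after the median of a gene list stand, where they are given, the lowest and highest values of that median with 1 library left out. Markers of fat cells were high in all 6: Adipoq, which encodes adiponectin, stood at 174881, 174949 and 124920.3 in wild type and at 272388, 139725 and 184921 in knockout. Per kilobase the most abundant genes included Fabp4, Scd1, Car3, Cfd and Gsn, and transcripts of the Y chromosome were read in every library.

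**Figure D1:**
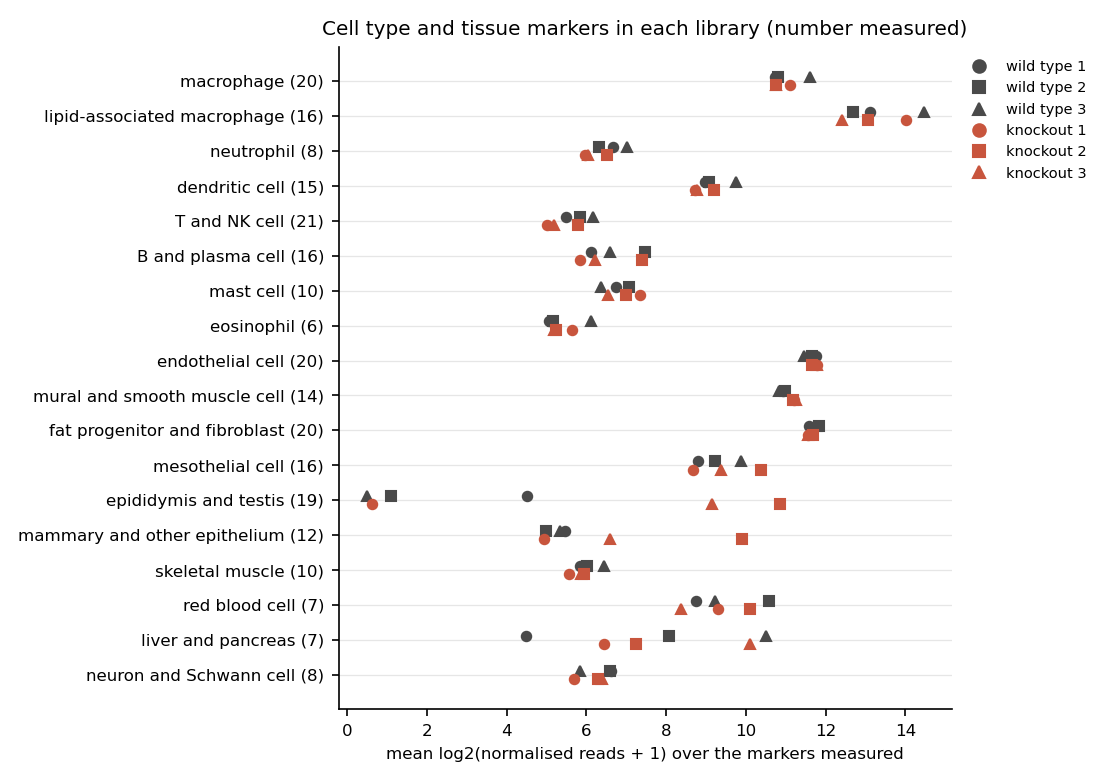
Mean log2(value + 1) of marker gene lists in each of the 6 libraries; each point is 1 library. Epididymis and testis genes averaged 10.85 in knockout 2 and 9.15 in knockout 3 against 0.62 in knockout 1, while endothelial genes lay between 11.45 and 11.78 in all 6.

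Gps2 itself (ENSMUSG00000023170, chr11:69913888-69916591) did not separate the groups. Its full-length transcript of 10 exons stood at 1494, 1061 and 1110 in wild type and at 1387, 1363 and 1198 in knockout, a log2 fold change of 0.12 ± 0.16 and an adjusted p of 0.848 by limma. A shorter transcript of 5 exons, at chr11:69914845-69915880 on GRCm38, had 42.3%, 49.3% and 47.5% of the full-length reads in wild type and 38.5%, 50.3% and 49.9% in knockout. The means were 46.4% ± 3.6 and 46.2% ± 6.67 (SD, n = 3 each; two-sided exact permutation p = 1, where 0.1 is the smallest possible). The sources used here do not give the exons that the floxed allele removes, and the other cells of the tissue keep the gene, so neither value checks the genotype in the titles. Among 14 measured genes of the corepressor complex and the ubiquitin enzymes tied to GPS2, 7 were higher and 7 lower, with a median of 0.00. Hdac3, the deacetylase, stood at 2979.7, 3108 and 2357 in wild type and at 3264, 3218 and 3214 in knockout (0.21 ± 0.13). Ube2n, which encodes UBC13, stood at 1425, 1332 and 1408 and at 833, 988 and 1260.2 (-0.45 ± 0.17). Neither pair of groups overlapped, and the adjusted p by limma was 0.656 for Hdac3 and 0.506 for Ube2n.

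The genes of cell division formed the list with the lowest median. Dividing cells switch on replication genes under E2F factors late in G1, and mitotic genes later, under B-MYB, FOXM1 and NF-Y acting at CCAAT boxes and at the cell cycle homology region, or CHR. Between divisions the DREAM complex represses both groups. All 32 measured mitosis genes were lower in the libraries labelled knockout, and in 29 of them the groups did not overlap, against 9.13% of all genes. Their median was -1.47, against -0.03 over all genes tested, and ranged from -1.72 to -1.25 when each library was left out in turn. At an unadjusted p under 0.05 there were 31 of 32, against 5.72%, and DESeq2 called 16, against 1.82%. This list and that of DNA replication were chosen with an earlier look at these data known, so their direction is not independent evidence.

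The promoters of 4 of these genes are shown because they carry the motif words of the 2 programmes. Each runs 5′ to 3′ over the 250 bases before the start given by RefSeq (GRCm38.p6), with every CCAAT (or ATTGG), CHR word TTTGAA (or TTCAAA) and E2F word (TTTGGCGC, TTTCCCGC, TTTCGCGC or TTTGCCGC, either strand) in capitals. Mki67 lies at chr7:135716380-135716629 on the minus strand, Top2a at chr11:99024190-99024439 minus, Cdk1 at chr10:69352913-69353162 minus and Mcm5 at chr8:75109259-75109508 plus.
Mki67: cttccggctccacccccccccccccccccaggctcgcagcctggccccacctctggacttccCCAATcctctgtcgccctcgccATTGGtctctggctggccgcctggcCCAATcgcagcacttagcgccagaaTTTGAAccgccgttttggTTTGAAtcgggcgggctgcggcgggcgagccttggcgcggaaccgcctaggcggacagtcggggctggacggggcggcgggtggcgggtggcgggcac
Top2a: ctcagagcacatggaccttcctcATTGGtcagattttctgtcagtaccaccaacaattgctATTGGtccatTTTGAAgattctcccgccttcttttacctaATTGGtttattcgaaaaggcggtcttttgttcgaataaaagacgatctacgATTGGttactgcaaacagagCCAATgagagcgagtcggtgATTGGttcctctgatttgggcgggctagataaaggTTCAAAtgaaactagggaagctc
Cdk1: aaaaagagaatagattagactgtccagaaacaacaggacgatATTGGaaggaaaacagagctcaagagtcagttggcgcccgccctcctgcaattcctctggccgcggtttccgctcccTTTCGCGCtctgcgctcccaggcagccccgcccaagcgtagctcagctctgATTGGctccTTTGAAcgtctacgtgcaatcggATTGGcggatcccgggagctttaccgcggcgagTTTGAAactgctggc
Mcm5: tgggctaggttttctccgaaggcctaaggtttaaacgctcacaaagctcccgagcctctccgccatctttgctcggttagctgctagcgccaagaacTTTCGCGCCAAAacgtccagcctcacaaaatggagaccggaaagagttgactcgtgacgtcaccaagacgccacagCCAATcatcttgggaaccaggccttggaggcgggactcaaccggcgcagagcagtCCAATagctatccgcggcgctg
The Mki67 promoter held 3 CCAAT and 2 CHR words, that of Top2a 6 and 2, and that of Cdk1 3 and 2 with 1 E2F word. That of Mcm5 held 2 CCAAT words and 2 E2F words, which overlap on opposite strands, and no CHR word. Of 11697 tested genes with a promoter in the table, 35.9% held a CCAAT, 10.9% a CHR word, 4.15% both and 3.2% an E2F word. Of 24 mitosis genes with one, 18 (75.0%) held a CCAAT, 8 (33.3%) a CHR word and 1 (4.17%) an E2F word, and 13 (54.2%) held more than 1 CCAAT, against 13.0% of all. Of 24 replication genes 14 (58.3%) held a CCAAT, 4 (16.7%) a CHR word and 6 (25.0%) an E2F word. A match describes the letters only, and binding was not measured here.

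Mki67 (ENSMUSG00000031004, chr7:135689784-135716361), the Ki-67 antigen of dividing cells, gave 1861, 1263 and 1655 in wild type and 742, 578 and 474 in knockout. Every wild-type library was above every knockout library, the change was -1.42 ± 0.22, and the adjusted p by limma was 0.286. Top2a, the topoisomerase that untangles chromosomes, gave 1818, 1081 and 1483 against 565, 604 and 344 (-1.54 ± 0.28). Ccna2, the cyclin of S and G2 phase, gave 407, 419.9 and 451 against 191, 202 and 161 (-1.20 ± 0.19). Both were again apart without overlap. Tpx2, which builds the spindle, stood at 669, 428 and 727 and 160.4, 232 and 165 (-1.69 ± 0.27). Ndc80, of the kinetochore, stood at 252, 177 and 238 and 82.2, 58.4 and 61.8 (-1.71 ± 0.29). Those 2 belong to the apparatus that pulls chromosomes apart. Anln, of the cleavage furrow, stood at 1225, 1069 and 1155 and 484, 640.2 and 644 (-0.97 ± 0.16). Gtse1, a microtubule protein of G2 and mitosis outside the list, gave 356, 269 and 452 and 70.3, 105 and 57.5 (-2.21 ± 0.33). The smallest fold among the 7 was that of Anln.

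In 3 of the 32, Aurka, Plk1 and Kif2c, the groups overlapped. Kif2c, a kinesin of the centromere that dividing germ cells also use, is given for its spread: it stood at 1311, 96.9 and 204 in wild type, where wild type 1 is far above the others, and at 51.7, 117 and 53.2 in knockout. Without wild type 1, the library with sperm transcripts, the median of the list was -1.25, the mildest of the left-out values. In that setting 29 of 32 were lower without overlap, against 16.9% of all genes, a count that could not fall. With wild type 1 and knockout 2 both left out, all 32 were lower without overlap (24.7% of all genes), with a median of -1.41. Wild type 2 alone, with 1263 for Mki67 and 1081 for Top2a, was the lowest of the wild-type libraries and still above every knockout library.

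**Figure D2:**
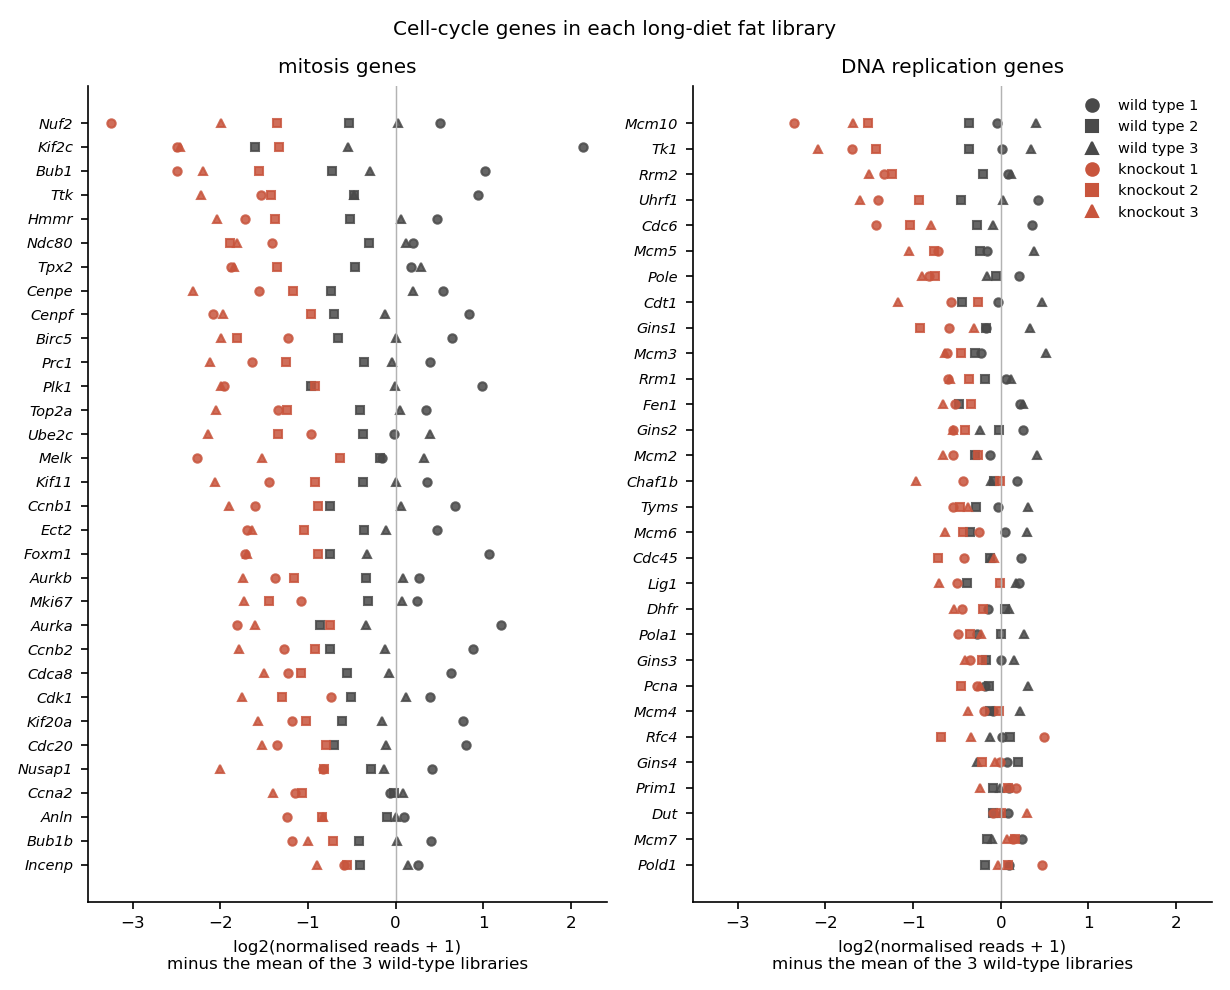
Values of the 32 mitosis genes (left) and 30 DNA replication genes (right) in each of the 6 libraries, as log2(value + 1) minus the mean of the 3 wild-type libraries. Each symbol is 1 library; the knockout symbols lie left of the wild-type symbols for 29 mitosis genes and 15 replication genes.

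Of the replication genes, 26 of 30 were lower, 15 without overlap, with a median of -0.47. Rrm2, the ribonucleotide reductase subunit that supplies nucleotides for S phase, gave 508, 417 and 519 against 189.6, 202 and 168 (-1.36 ± 0.19). Tk1, the thymidine kinase of S phase, gave 338, 260.1 and 423 against 102, 123 and 78.1 (-1.74 ± 0.29), and Mcm10, which helps start forks, 123, 97.7 and 167 against 23.9, 43.6 and 38.6 (-1.85 ± 0.40). These 3 were the members with the lowest fold changes. The MCM helicase subunit Mcm5 stood at 682, 644 and 988 and 461, 447 and 365 (-0.84 ± 0.21), and Pole, the leading-strand polymerase, at 508, 423 and 393 and 248, 260.02 and 236 (-0.82 ± 0.18). Smc2, a condensin subunit outside the list, stood at 781, 785 and 914 and 424, 387 and 383 (-1.05 ± 0.14, adjusted p 0.286 by limma). Mcm7, by contrast, gave 1475, 1116 and 1162 and 1369, 1391 and 1301 (0.12 ± 0.14). The list's median was -0.33 without wild type 3 and -0.60 without wild type 2.

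Among 23 genes that run or brake G1, 10 were lower and 3 higher without overlap, with a median of -0.28 (-0.41 without knockout 3 to -0.27 without wild type 3). The E cyclins, which drive entry into S phase, were among the lower: Ccne1 gave 368, 340.4 and 405 against 194, 166 and 142 (-1.15 ± 0.21) and Ccne2 223, 268 and 204 against 127, 77.3 and 94.4 (-1.23 ± 0.28). Ccnd2, a D cyclin that answers growth signals, gave 13710.5, 22706 and 22138 against 10788, 10455 and 11803 (-0.79 ± 0.22), and the activator E2f3 gave 735, 949 and 847 against 499.8, 591 and 615 (-0.57 ± 0.16). All 4 kept the groups apart. The 3 higher genes, named after their values were seen, included both inhibitors Cdkn1c (829, 523 and 448 against 1924, 931 and 992, 1.06 ± 0.35) and Cdkn1b (0.40 ± 0.16). The third, Cdk4, is the kinase of the D cyclins (0.30 ± 0.13). The adjusted p by limma ran from 0.302 for Ccne1 to 0.555 for Cdk4, so none of these genes passed.

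Matrix genes were lower as a second large group. Collagens are laid down in fat by fibroblasts and by fat cells, and collagen VI forms a mesh around each adipocyte. All 15 measured collagens were lower, 10 of them without overlap, with a median of -0.69. DESeq2 called 8 of the 15 lower, against 1.82% of all genes. Col15a1, a collagen of basement membrane zones that stromal cells of fat express, gave 43878, 53683 and 54869 against 28193, 33255 and 33354 (-0.68 ± 0.17, adjusted p 0.371 by limma). The chains of collagen VI were all lower. Col6a1 gave 35924, 35823 and 71121 against 15315, 27538 and 20033 (-1.15 ± 0.34). Col6a2 gave 41532, 41875 and 75249 against 19941, 30069 and 23828 (-1.07 ± 0.28), and Col6a3 10734, 14659.9 and 19745 against 5475, 8456 and 8324 (-1.004 ± 0.27). Wild type 3 was the high library for each of them, and the groups did not overlap. The largest difference was in Col12a1, a collagen that binds to the surface of fibrils, with 741, 1088 and 2115 against 237, 466 and 348 (-1.82 ± 0.42). The main fibre chains differed less, and their groups overlapped. Col1a1 gave 21038, 17575 and 27378 against 13983, 25072 and 12579.6 (-0.40 ± 0.30) and Col3a1 94775, 85481 and 136717 against 55056, 91014 and 62079.7 (-0.61 ± 0.27). Without knockout 2, the library rich in epididymal and epithelial RNA, all 15 collagens were lower without overlap (16.3% of all genes) and the median was -0.82.

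Glycoproteins and proteoglycans of the matrix were lower in 20 of 25, with 11 apart and a median of -0.43 (-0.54 without knockout 2 to -0.36 without knockout 1). Gpc1 (chr1:92831645-92860779), a heparan sulfate proteoglycan of the cell surface, had the smallest limma p of all genes lower in knockout, at 4641, 4505 and 5302 against 2303, 2357 and 2396 (-1.03 ± 0.11). Fbn1, the fibrillin of microfibrils, gave 16061, 20303 and 18819.8 against 7118, 10709 and 10489 (-0.98 ± 0.20, adjusted p 0.334 by limma). Prelp, a leucine-rich proteoglycan that anchors basement membranes, gave 83382, 77151 and 104203 against 31831, 46496 and 47208 (-1.09 ± 0.22). The elastic fibre protein Fbln5 gave 5084, 5318 and 4739.5 against 3607, 4183 and 3579 (-0.42 ± 0.12). Each of these kept the groups apart. In the basement membrane 11 of 16 were lower, 6 without overlap, with a median of -0.34 (-0.43 without knockout 2 to -0.26 without wild type 3). Sparc, which binds collagen IV, gave 305724, 267502 and 332250.5 against 146497, 201391 and 200386 (-0.73 ± 0.23), and the laminin chain Lama2 3196, 3759 and 3851 against 2275, 2786 and 3109.7 (-0.41 ± 0.15). Enzymes that crosslink and turn over matrix were lower in 21 of 27, with a median of -0.23 (-0.31 without knockout 2 to -0.09 without wild type 3). In 3 of them (11.1%) the groups stood apart, near the 9.13% of all genes. The lysyl oxidase Lox gave 3939, 3834 and 4505 against 2415, 2672 and 2954 (-0.61 ± 0.13) and its relative Loxl2 2036, 2677 and 2762 against 1115, 1808 and 1589 (-0.74 ± 0.21). The other, Plod1, a lysyl hydroxylase named after its values were seen, had a change of -0.42 ± 0.19.

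Fat-cell genes were mostly higher. Of 23 adipocyte identity genes 18 were higher, with a median of 0.24 (0.12 without wild type 3 to 0.36 without knockout 2). In only 1 each way (4.35%) did the groups stand apart, against 7.31% of all genes higher and 9.13% lower. That higher gene was Cfd (chr10:79890853-79892655), the complement factor adipsin that fat cells secrete, with 117994, 111331 and 24419 in wild type and 672904, 178759 and 395580 in knockout (2.404 ± 0.74, adjusted p 0.452 by limma). Wild type 3 was the low library of the first group, and without it the change was 1.66. The lower gene was Lep, which encodes the satiety hormone leptin and follows fat-cell size, with 104876, 140622 and 243429 against 60228, 48066 and 104337 (-1.19 ± 0.40). Pparg, the master regulator of adipogenesis, overlapped at 9546, 9435 and 10162 and 11207, 8067 and 13455 (0.14 ± 0.20).

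Genes of fatty acid synthesis were higher in 15 of 20, 4 without overlap and none lower without overlap, against 7.31% and 9.13% of all genes, with a median of 0.32. That median ran from 0.14 without wild type 1 to 0.47 without knockout 2. Acacb, the acetyl-CoA carboxylase at the mitochondrial surface, gave 7990.5, 8229 and 4139 against 19959, 11313 and 19774 (1.35 ± 0.34). Scd1, the desaturase that makes oleate, gave 2210830, 2546828 and 1621868 against 3864071, 3304846 and 4454080 (0.88 ± 0.33). Srebf1, whose product drives lipogenic genes, gave 15990.2, 19084 and 18716 against 25999, 21583 and 26915 (0.47 ± 0.15), and Aacs, which returns ketone bodies to lipid synthesis, 9655, 11164 and 8409 against 25254, 12539 and 23545 (1.01 ± 0.28). In all 4, knockout 2 was the lowest library of its group, and its Aacs and Srebf1 values lay near those of wild type. Mid1ip1, an activator of acetyl-CoA carboxylase polymers, stood at 1615, 1858 and 2259 and 3525, 4439 and 3277 (0.97 ± 0.17) and was among the 15 higher genes of smallest p. Fads1, the delta-5 desaturase of long polyunsaturated chains, gave a change of 1.36 ± 0.22 and belonged to the genes that limma called when knockout 1 was left out. That setting called 22 genes, all higher, of which 17 were under 1.5 in wild type 2, wild type 3 and knockout 1 and far above that in knockout 2 and 3. Cholesterol synthesis genes showed no common direction, with 13 higher, 12 lower and a median of 0.11 (-0.09 without wild type 1 to 0.24 without wild type 3).

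Uptake and storage gave fewer separated genes. In the uptake list 5.88% were higher and 11.8% lower without overlap, against 7.31% and 9.13% of all genes. Vldlr, a receptor that brings triglyceride-rich particles to fat, gave 8436, 13127 and 11555 against 5649, 6455 and 4791 (-0.96 ± 0.20). Apoe, a lipoprotein of cholesterol efflux and a target of the LXR receptors, gave 147071, 109362 and 84371 against 351945, 160302 and 219195 (1.06 ± 0.35). Both kept the groups apart, in opposite directions. Over the uptake list 10 of 17 were lower, with a median of -0.22 (-0.35 without knockout 1 to -0.09 without knockout 2), and over 17 LXR targets 9 were higher and 8 lower, with a median of 0.03 (-0.09 without knockout 1 to 0.10 without wild type 3). Plin5, the droplet protein that ties lipid droplets to mitochondria, gave 990.2, 839.8 and 933 against 1588, 1201 and 1569 (0.65 ± 0.15), the 1 separated gene of 21 in triglyceride synthesis and storage (median 0.13, from 0.07 without wild type 3 to 0.28 without knockout 2). In lipolysis, Pnpla2, the lipase ATGL, was the 1 separated gene of 16, at 120812, 125982 and 68337 against 211536, 126488 and 147070.1 (0.64 ± 0.32). The higher shares without overlap in the storage and lipolysis lists, 4.76% and 6.25%, did not exceed the 7.31% of all genes.

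**Figure D3:**
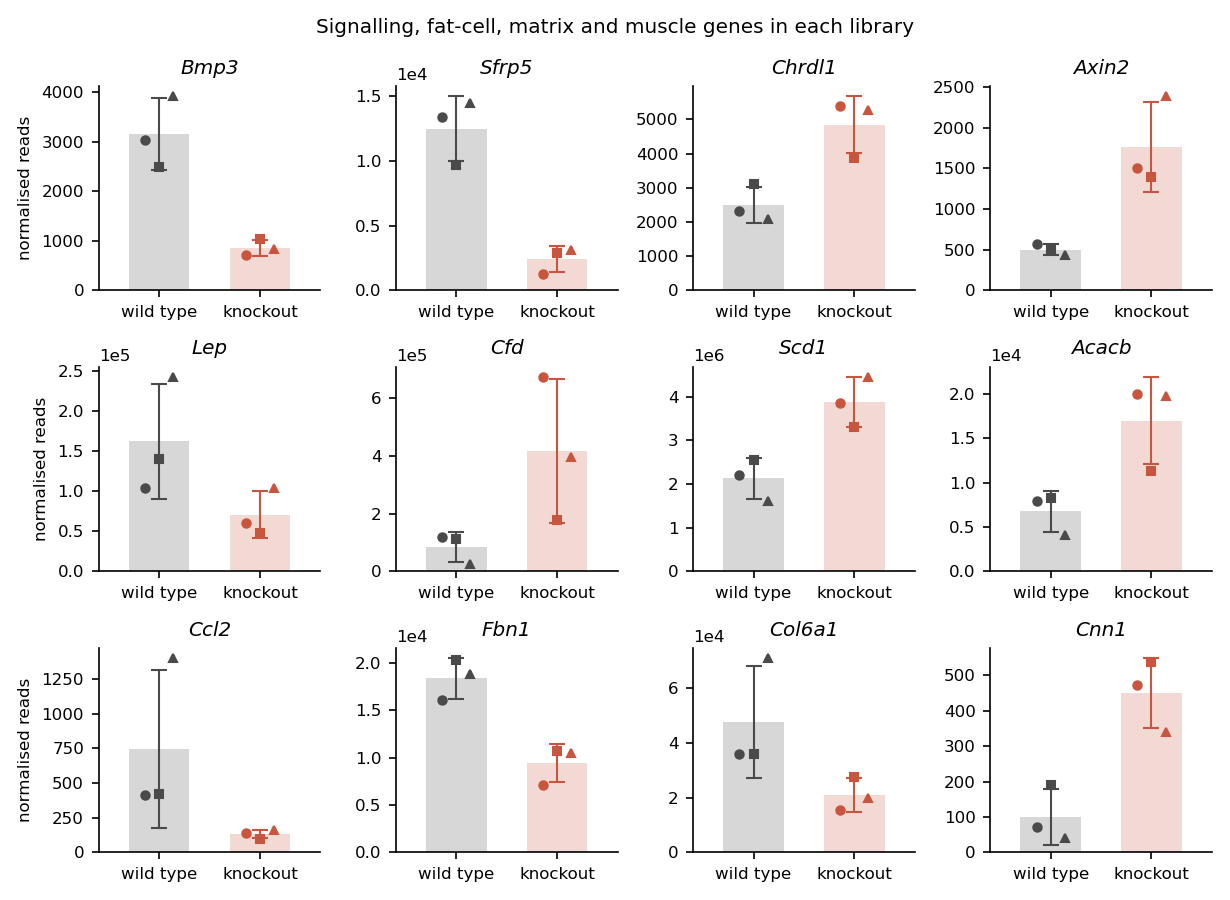
Values of 12 genes of signalling, fat cells, matrix and muscle, on linear axes from 0; bars are group means, error bars SD (n = 3), and circles, squares and triangles are libraries 1, 2 and 3. Bmp3, Sfrp5, Lep, Ccl2, Fbn1 and Col6a1 were lower and Chrdl1, Axin2, Cfd, Scd1, Acacb and Cnn1 higher in all 3 libraries labelled knockout than in any wild-type library.

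Genes of the respiratory chain shared a small difference. Of 69 nuclear-encoded subunits 68 were higher, with a median of 0.29, but only 11 (15.9%) kept the groups apart, against 7.31% of all genes. At an unadjusted p under 0.05 there were 8 higher, against 3.47% of all genes, and DESeq2 called 1 higher, against 1.2%. Ndufa6, a complex I subunit, gave 2689.6, 3153 and 2646 against 4393, 3583 and 3905 (0.48 ± 0.13). Cox5b, of cytochrome oxidase, gave 3076, 3720.5 and 2987 against 7259, 3873 and 4972 (0.68 ± 0.23), and Ndufs6, also of complex I, 2092, 2402 and 2354 against 4229, 2629 and 3028 (0.50 ± 0.19). In each, knockout 1 was the highest library and knockout 2 the closest to wild type. The median was 0.13 without knockout 1 and 0.47 without knockout 2. With wild type 1 and knockout 2 both left out, 53 of 69 were higher without overlap, against 21.8% of all genes.

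Breakdown of branched-chain amino acids, a fuel of fat cells, was higher in 19 of 20 genes, with a median of 0.39 (0.25 without wild type 3 to 0.55 without knockout 2). In 3 of the higher genes (15%) the groups did not overlap, against 7.31% of all genes. Bcat2, the mitochondrial aminotransferase of the first step, gave 10434, 10942 and 6702 against 26434, 10209 and 19315 (0.92 ± 0.37), where knockout 2 lay among the wild-type values. Those without overlap included Pccb, named after its values were seen (0.52 ± 0.22), and Bckdha, whose transcript lies 61.7% inside exons of another gene and is uncertain. In the TCA cycle 19 of 25 were higher, with a median of 0.16 (0.05 without wild type 3 to 0.31 without wild type 2). Suclg2, a succinyl-CoA ligase chain, was higher (0.47 ± 0.16) and its partner Sucla2 lower (-0.36 ± 0.14), both without overlap. Fatty acid oxidation had 11 higher and 14 lower genes and a median of -0.02 (-0.06 without wild type 1 to 0.14 without wild type 2).

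Thermogenic genes had no common direction, with 8 higher and 8 lower and a median of 0.01 (-0.35 without wild type 1 to 0.09 without wild type 2). Ppargc1a, a coactivator of mitochondrial genes, gave 236, 273 and 136 against 489, 484 and 329 (1.05 ± 0.32). Kcnk3, a potassium channel of brown and beige fat cells, gave 1672, 1533 and 2511 against 426, 1004 and 963 (-1.32 ± 0.37), and the proton channel Otop1 138, 349.5 and 1115 against 6.63, 121 and 44.6 (-3.44 ± 1.15). Ucp1, the uncoupling protein of brown fat, was under the filter. Antioxidant enzymes were higher in 18 of 27, with a median of 0.20 (0.12 without wild type 1 to 0.25 without wild type 2). Gpx3, the secreted glutathione peroxidase, gave 9379.8, 10416 and 6585 against 13161, 34990.2 and 25593 (1.40 ± 0.37), and Gpx1, its counterpart inside cells, 31960.5, 29945 and 26473 against 65035, 36921 and 48241 (0.73 ± 0.23). Sod1, the cytosolic superoxide dismutase, was higher (0.64 ± 0.23) while Sod3, the extracellular one, was lower (-0.44 ± 0.16).

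Signals that act on fat progenitors lay in both directions. Among 29 genes of TGF-beta, BMP and activin signalling 15 were higher and 14 lower, with a median of 0.10 (-0.10 without wild type 1 to 0.14 without knockout 1). It was also below 0 without knockout 2 (-0.05) and without knockout 3 (-0.03). Bmp3 (chr5:98854415-98884396), a BMP relative that opposes other BMPs, gave 3038, 2499.6 and 3934 against 717, 1040.1 and 827 (-1.86 ± 0.21). Chrdl1, an extracellular BMP antagonist, gave 2321, 3098 and 2079 against 5398, 3881 and 5274 (0.96 ± 0.20). Bmp1, a protease that trims procollagens, was lower with 3549, 3403 and 4950.1 against 1837, 2784 and 2325 (-0.78 ± 0.21). The adjusted p by limma was 0.339 for Chrdl1.

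Among 34 Wnt ligands, inhibitors and targets 20 were higher and 14 lower, with a median of 0.07 (-0.08 without knockout 2 to 0.17 without wild type 2). Sfrp5 (chr19:42197971-42202252), a decoy that binds Wnt ligands and is made by fat cells, gave 13359, 9643 and 14482 against 1233, 2872 and 3104 (-2.47 ± 0.37). Sfrp4, of the same family, gave 379, 725 and 657 against 216, 349 and 350.01 (-0.92 ± 0.32), and the ligand Wnt11 353, 307 and 291 against 129, 227 and 232 (-0.74 ± 0.28). All 3 lower genes kept the groups apart, 8.82% of the list against 9.13% of all genes. A further 2 genes were higher without overlap, 5.88% against 7.31%, so neither share exceeded that of all genes. Axin2, a gene that beta-catenin switches on, was higher (1.77 ± 0.23), as was Rspo3, a secreted amplifier of Wnt signals named after its values were seen, with 38.4, 38.9 and 23.8 against 71.6, 149.8 and 48.0 (1.26 ± 0.52).

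Inflammatory genes were lower as a list, with wide spread. Of 32 NF-kB, cytokine and chemokine genes 23 were lower, 7 without overlap and none higher without overlap, with a median of -0.44. That median ran from -0.56 without wild type 2 to -0.16 without wild type 3. Ccl2, which draws monocytes into fat, gave 413, 421 and 1404 against 142, 98.7 and 159 (-2.25 ± 0.50). Ccl7 gave 134, 174 and 868 against 42.4, 42.8 and 96.1 (-2.26 ± 0.75) and Ccl8 643, 664 and 1203 against 106, 425 and 106 (-2.24 ± 0.58), both of the same family of monocyte attractants. Wild type 3 was the highest library for each, and without it the change of Ccl2 was -1.67. Ccl5, an attractant of T cells, gave 190.4, 202 and 268 against 102, 115 and 104 (-1.02 ± 0.25) with less spread.

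Markers of immune cells leaned to lower values in most lists, and wild type 3 was a high library for several. Macrophage markers had 14 of 20 lower but a median of -0.10 (-0.27 without wild type 2 to 0.10 without wild type 3), and 1 gene apart each way. Lipid-associated macrophage markers had 12 of 16 lower, 1 without overlap, and a median of -0.38 (-0.63 without knockout 1 to 0.01 without wild type 3). Neither list was below 0 at its median without wild type 3. Adgre1, which encodes F4/80, overlapped at 2115, 2213 and 5994 and 3247, 2127 and 1743 (-0.41 ± 0.44), with wild type 3 the high library, without which the change was 0.08; it is named after its values were seen. T and NK cell genes were lower in 18 of 21, 5 without overlap, with a median of -0.66 (-0.72 without knockout 1 to -0.43 without knockout 3). Of the 3 higher, Klrb1c had the largest change, 2.55, from a mean of 23.7 to 320 reads per kilobase, with groups that overlapped. The list's values summed to 1345, 1697 and 2551 in wild type and to 1226, 3235 and 1577 in knockout, so knockout 2 was the highest library. Nkg7, of cytotoxic granules, gave 87.5, 96.9 and 91.6 against 58.3, 51.0 and 40.3 (-0.88 ± 0.32), and Il2ra, the high-affinity receptor chain for interleukin 2, 198, 298 and 314 against 168, 174 and 159 (-0.66 ± 0.25). Both are low genes, and both kept the groups apart. Named after their values were seen, Cd8a gave 33.8, 42.2 and 40.5 against 0, 9.87 and 8.58 and Cd8b1 49.1, 35.6 and 36.1 against 10.6, 23.0 and 9.44. These encode the 2 chains of the CD8 receptor of cytotoxic T cells. The T cell kinase Lck gave 99.8, 100.2 and 108 against 68.9, 89.7 and 41.2, while Gata3, a factor of helper and innate lymphoid cells, was higher at 13.8, 26.5 and 15.9 against 50.4, 87.2 and 57.5. The neutrophil marker S100a8 was lower (-3.25 ± 0.43), but 8 measured neutrophil genes split 3 higher and 5 lower, with a median of -0.68 (-0.97 without wild type 1 to -0.22 without wild type 3), and others such as Ly6g were near 0 in all libraries. Interferon response genes were lower in 22 of 27, with a median of -0.23 (-0.38 without wild type 2 to -0.05 without wild type 3). In 4 of the lower genes (14.8%) the groups did not overlap, against 9.13% of all genes. Of the 5 higher, Ifi27l2a, one of the most abundant genes, had a mean of 94749 reads per kilobase in wild type and 276785 in knockout. Its change was 1.25, and its groups overlapped. The list's values summed to 78143, 83499 and 81349 in wild type and to 274914, 76668 and 123309 in knockout. Gbp2, a guanylate-binding protein, gave 4894, 6551 and 6573 against 2832, 3229 and 4035 (-0.84 ± 0.18), and Tap1, a peptide transporter of antigen presentation, 1739, 1787 and 2134 against 1332, 1554 and 1352 (-0.41 ± 0.13). The remaining members apart were Gbp3 (-0.51 ± 0.14) and Ifi44 (-0.68 ± 0.33), the last named after its value was seen.

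Stromal and vessel genes gave no single direction. Endothelial genes overlapped in 20 of 20, with a median of 0.12 (0.03 without wild type 3 to 0.21 without wild type 1). Smooth muscle genes were higher in part: Cnn1, calponin of contractile cells, gave 70.6, 190.5 and 39.6 against 472, 537 and 341 (2.43 ± 0.56), and Myh11, the smooth muscle myosin heavy chain, 2541, 2621 and 1899 against 4569.6, 3865 and 3046 (0.70 ± 0.20). Lmod1, which nucleates actin filaments there, gave 310.1, 271 and 166 against 489, 459 and 338 (0.81 ± 0.29). Tpm2, a tropomyosin, and Myl9, a myosin light chain, were among the 15 higher genes of smallest p, with 1079, 1014 and 958 against 2523, 1814 and 1670.2 (0.95 ± 0.17) and 2168, 1954 and 1439 against 3944, 3334 and 3119 (0.92 ± 0.18). Over the list of 14 mural genes 7 were higher and 7 lower, with 5 and 2 apart. Smooth muscle also surrounds the epididymal duct. In the knockout libraries the epididymis and testis list summed to 149.8, 120382 and 36299, and its part in the values of the muscle genes was not tested.

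Progenitor genes were lower in 12 of 20, with a median of -0.18 (-0.24 without wild type 1 to -0.04 without knockout 3). Without wild type 3 it was -0.05. Cd55, a complement inhibitor that marks early progenitors, gave 2387, 3284 and 2845 against 1413, 1586 and 1445 (-0.93 ± 0.14, adjusted p 0.286 by limma). Sema3c, a secreted guidance protein of stromal cells, gave 5263, 8729 and 9711 against 2832, 4142 and 3746 (-1.11 ± 0.26). Ly6c1, shared by endothelial cells and progenitors, stood on the other side with 5238, 3979.7 and 4876 against 6164, 7527 and 6581 (0.53 ± 0.15), as did the actin-severing gelsolin Gsn with 507727, 491106 and 276767 against 1276304, 609471 and 808212 (1.06 ± 0.38). Cd34, named after its values were seen, was lower (-0.39 ± 0.13).

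Of 19 clock genes 12 were lower, with a median of -0.13 (-0.27 without knockout 2 to -0.03 without wild type 1). Higher without overlap were 3 genes (15.8%, against 7.31% of all genes). They included 2 genes of the activating arm of the cycle. Arntl, which encodes BMAL1, gave 477, 866 and 944 against 1212, 1057 and 1673 (0.82 ± 0.30). Npas2, which pairs with BMAL1, gave 50.7, 163 and 149.8 against 266, 375 and 284 (1.496 ± 0.47). The hour at which tissue was taken is not given in the labels. In glycolysis, Pfkfb4, which sets the level of fructose bisphosphate, gave 1696, 2341 and 2227 against 779, 1145 and 813 (-1.20 ± 0.20), in a list with 15 higher and 15 lower. Lysosomal genes were lower in 27 of 32, with a median of -0.22 (-0.34 without wild type 1 to 0.00 without wild type 3). In 4 of them (12.5%) the groups did not overlap, near the 9.13% of all genes. Insulin signalling had 15 of 21 higher and a median of 0.14 (0.06 without knockout 1 to 0.21 without wild type 2), and the unfolded protein response 13 genes each way.

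**Figure D4:**
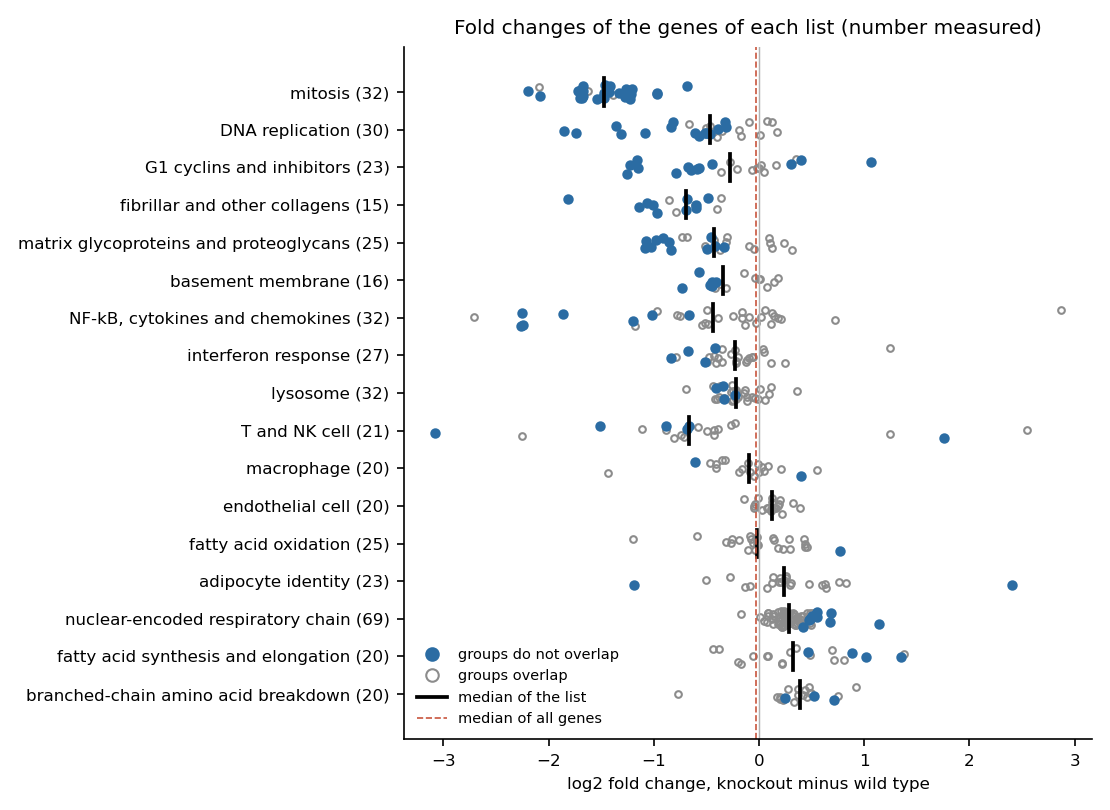
Log2 fold change of every measured gene of 17 lists, knockout minus wild type; filled points are genes whose groups do not overlap, black bars list medians, the dashed line the median of all genes tested. Mitosis lies farthest to the left, at a median of -1.47, and branched-chain amino acid breakdown farthest to the right, at 0.39.

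The largest single differences lay in genes of unlike functions. Among lower genes, Slc5a7, the choline transporter of cholinergic nerves, gave 3787, 4924 and 7063 against 1046, 292 and 739 (-3.06 ± 0.48). Duox1, an oxidase that makes hydrogen peroxide, gave 81.4, 78.7 and 246 against 3.98, 32.1 and 24.9 (-2.86 ± 0.85), and its maturation factor Duoxa1 548, 687 and 947 against 221, 227 and 211 (-1.69 ± 0.23). Both parts of that enzyme were lower without overlap. Fgf13, an intracellular relative of fibroblast growth factors, gave 2407, 4502 and 6349.9 against 977, 968 and 291 (-2.65 ± 0.56). Tph2, the serotonin-making hydroxylase of nerve cells, gave 207, 187 and 3906 against 31.8, 31.3 and 48.9 (-3.83 ± 1.14), and Itgad, an integrin of macrophages, 90.6, 43.9 and 513 against 0, 25.5 and 6.86 (-4.44 ± 1.41). Low reads lie behind the knockout values of Itgad. Among higher genes the largest folds included those of Rnase10, Ly6g5b and Cldn7, which stood high in knockout 2. Rnase10, an epididymal ribonuclease relative, stood at 29.2 in knockout 1 and at 18396 in knockout 2. Even differences with small spread were those of H1f0, the linker histone of resting cells, with 3560.03, 3521 and 3724 against 5053, 5644 and 5148 (0.55 ± 0.11), and Cp, the copper ferroxidase ceruloplasmin, with 4120.4, 5822 and 4298 against 8229.7, 9511 and 7969 (0.87 ± 0.17). Sesn3, which restrains mTORC1 and is switched on by FOXO factors, was lower with 2596, 2983 and 2849 against 1477, 1771 and 1714 (-0.77 ± 0.12).

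The same genotype contrast in isolated adipocytes of the same age and diet gave other values for several lists. It used 3 wild-type libraries and 2 labelled knockout, since a further adipocyte sample labelled knockout had no column of its own. Of 14172 genes measured in whole fat and in adipocytes, the genotype effect differed in 235 by an interaction test with limma and Benjamini-Hochberg adjustment. It was lower in whole fat for 230 (1.62%) and higher for 5 (0.0353%). Same-numbered wild-type libraries of the 2 tables deviated together, which the knockout libraries did not clearly show. With the number as a block 633 genes differed. The count was 33 without wild type 2 of whole fat and 662 without wild type 3 of the adipocytes. Fbn1, lower in whole fat, had a change of 1.35 ± 0.40 in adipocytes, and the difference of -2.33 ± 0.46 had an adjusted p of 0.0394 by limma. The list medians of mitosis were 0.00 in adipocytes and -1.47 in whole fat, and those of endothelial genes 2.71 and 0.12. Other lists were high with the label knockout in adipocytes too: immediate early genes had a median of 2.68 (20 of 20 higher, 13 called), mesothelial genes 2.31 (14 of 14), mast cell genes 2.48 (5 of 5) and mural genes 1.89 (11 of 14). The part of these cell types in the differences was not tested. Of 32 mitosis genes, 0 had an effect that differed by this test. For Mki67 the change in adipocytes was 1.29 ± 0.92, and the difference of -2.71 had an adjusted p of 0.248 by limma. Of the 15 higher and 15 lower genes of smallest p in whole fat, 15 and 12 had the same sign in adipocytes. Limma called 0.541% of genes higher and 0.0913% lower there, and of these genes only Gpc1 passed, at -1.18 ± 0.15 (adjusted p 0.0412). The share of all genes with the same sign in both tables was not counted. Because same-numbered wild-type libraries deviated together, the agreement in sign may not be independent.

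The table of whole fat after the shorter diet (11 weeks of age and, by its name, 4 weeks of diet) held 32 libraries. Libraries of 1 replicate, as read from the titles, were averaged, giving 4 against 4. Against these averages no effect differed after adjustment among 14063 genes by limma, with 2406 at an unadjusted p under 0.05. Leaving out knockout 1 of the long diet gave 51. The smallest adjusted p was 0.0698, and the genes nearest the threshold included Smc2, H1f0, Pkp4 and Smarcd3. Genes lower in the long-diet table that passed limma there in the same direction, where 2.44% of genes were called lower, included Sfrp5 (-4.76 ± 0.77, adjusted p 0.0132). Bmp3 (-0.91 ± 0.15, adjusted p 0.0127 by limma), Kcnk3 (-2.58 ± 0.25) and Prelp (-0.99 ± 0.21) also did. On the higher side, with 1.01% called, they included Cfd (0.97 ± 0.22), Gsn (0.91 ± 0.18), Cp (0.80 ± 0.18) and Aacs (0.94 ± 0.19). The mitosis list had a median of -0.12 there, and Mki67 a change of 0.00 ± 0.36. The difference between the diets for Mki67 was -1.42 ± 0.50, with an adjusted p of 0.202 by limma, so it was not shown to differ. The genes given above were picked because they passed there. Of the 15 higher and 15 lower genes of smallest p, 7 and 12 had the same sign, and 2 and 2 passed limma there in that direction.

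On chow at 19 weeks (24 libraries, averaged by replicate to 3 against 3) limma called 0 genes. Of 15199 compared effects 0 differed after adjustment, with 1268 at an unadjusted p under 0.05. Leaving out knockout 3 on chow gave 181. Fatty acid synthesis had its highest median of the 4 tables there, 1.34, against 0.32 in the long-diet table. The respiratory chain had 0.46 on chow, -0.10 after the short diet and 0.29 after the long one. The collagen median was below 0 in each of the 4 tables, at -0.58 in adipocytes, -0.10 after the short diet and -0.35 on chow. The other matrix lists did not share that sign in adipocytes or after the short diet. Glycoproteins and proteoglycans had medians of 1.15, 0.17 and -0.22 in that order, and the basement membrane 0.35, 0.02 and -0.06. Enzymes that crosslink and turn over matrix had 0.21, 0.04 and -0.13. Over all genes tested the medians were -0.04, -0.09 and 0.11 in that order. The short-diet values of the collagens and of the respiratory chain thus lay near that of all genes. Lists of other tissues and cells differed on chow as well. Epididymis and testis genes had a median of 4.87 there (12 of 12 higher), epithelial genes 1.97 (11 of 11), B cell genes -1.06 (15 of 16 lower), mast cell genes -2.15 (6 of 7 lower) and macrophage genes -0.53 (18 of 20 lower). Their part in the chow values was not tested, and no list's difference from chow was tested as a list.

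**Figure D5:**
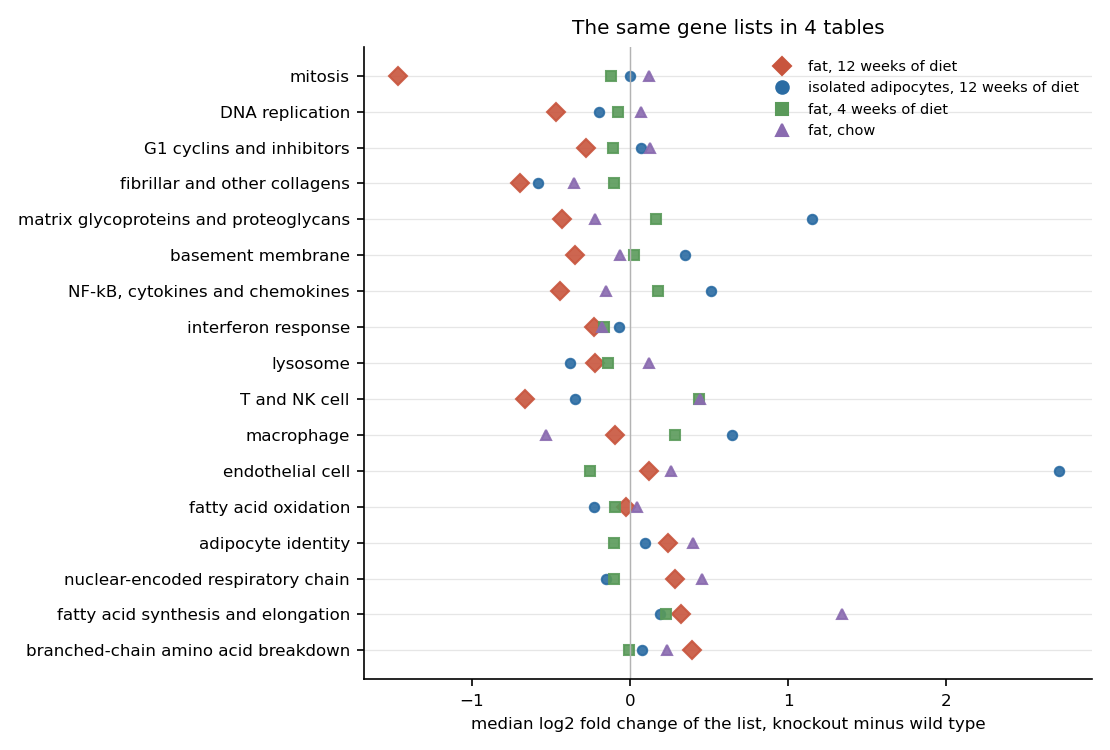
Median log2 fold change, knockout minus wild type, of the same gene lists in 4 separately normalised tables. Mitosis lies at -1.47 in long-diet fat and between -0.12 and 0.12 in the other 3.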

How the data were processed

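Poly(A) RNA of mouse fat was sequenced from TruSeq stranded libraries, per the labels' protocols. What the authors deposited is, for each Ensembl transcript, a signal: whole reads over the library's size factor, which held for 100.0% of values of the 6 libraries within 0.01 of a read. Per the submitters' processing notes the build was GRCm38.p4 and the tools DESeq 1.8.3, HTSeq 0.5.3, STAR 2.4.0k, bcl2fastq 2.17 and SAMtools. The strand setting of the counting is not given in those sources, so a gene's reads cannot be told from those of an overlapping or antisense neighbour (6.02% of genes overlap another by more than 50% of the transcript). Of 92440 transcripts, 657 had no gene in GENCODE M21 (0.357% of the values). The transcript of highest mean stood for each gene. The adipocyte table also held a column named as a further wild type, for which the series lists no sample, and it was left out. Conversely, a further adipocyte sample labelled knockout had no column of its own. Whether that column and that sample belong together was not tested.

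The test was limma 3.58.1 (R 4.3.3; trend and robust options) run on log2(value + 1) for genes with a mean of 10 or more, with Benjamini-Hochberg adjustment at 0.05. Comparisons between tables were interaction terms in 1 fit of separately normalised tables. For the short-diet and chow tables, libraries whose titles share the genotype and the last number were averaged as 1 replicate. That reading of the titles is not stated in the labels. Long-diet libraries were not averaged. Same-numbered libraries of whole fat and adipocytes had correlated deviations in wild type (0.418, 0.502 and 0.695, against -0.574 to 0.183 for other numbers). In knockout the values were 0.362 and 0.161, but knockout 3 of whole fat had 0.248 with knockout 2 of the adipocytes. Deviations of 2 adipocyte libraries mirror each other, so the knockout values say little about pairing. Recovered reads were tested with edgeR 4.0.16 and DESeq2 1.42.0. Other alternatives were pseudocounts of 0.5 and 5, no filter or a minimum of 50, TMM scaling, plain moderation, the longest transcript, the replicate block and each replicate left out. The fit was also run on simulated reads, with the spread within groups capped and no library standing apart. That run therefore does not cover libraries as unlike as these.

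Members and the 51 gene lists were chosen with earlier results of these data known. The text names Gps2, the 15 higher and 15 lower genes of smallest p and the 10 of largest fold without overlap (mean of 50 or more), up to 4 members of each list, the most abundant genes, and genes of smallest p between tables; not all are described. Other genes are said to be named after their values were seen. The targeted gene does not check the labels, which are used as given. Promoters came from RefSeq, for 11697 of 17687 genes, where its start lay within 1000 bases of the GENCODE one. Some genes are not reported here.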

Additional observations from a re-analysis of the deposited data

Results flagged for a closer look

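The effect of genotype differed between whole fat and isolated adipocytes in 235 genes by the interaction test with limma, which is a difference between groups under the same contrast. The genes named here are up to 5 of each sign with the smallest p, with the difference given as whole fat minus adipocytes. Among stress genes, Hspa1a and Hspa1b, the inducible HSP70 chaperones, differed by 4.49 ± 0.35 and 5.25 ± 0.43. In adipocytes their changes were -3.87 and -4.92, and in whole fat 0.62 and 0.33. Bag3, a partner of HSP70, differed by 0.838 ± 0.16, and mt-Rnr2, the large ribosomal RNA of mitochondria, by 3.33 ± 0.52.

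Genes that respond fast to stimuli lay on the other side. Irf1, an interferon regulatory factor, differed by -3.22 ± 0.22, with 3.17 in adipocytes and -0.06 in whole fat. Nfkbiz, a nuclear regulator of NF-kB, differed by -4.08 ± 0.35, and Klf2, a factor of endothelial cells and lymphocytes, by -3.44 ± 0.34. Arid5a, which stabilises inflammatory messages, differed by -3.46 ± 0.27, and Rnd1, a small GTP-binding protein of the cell skeleton, by -4.94 ± 0.41. In whole fat the change of each of these 5 was between -0.24 and 0.03. In adipocytes the medians of several lists were high with the label knockout: 2.71 for endothelial genes, 2.68 for immediate early genes, 2.48 for mast cell genes, 2.31 for mesothelial genes and 1.89 for mural genes. The part of these cell types in the differences was not tested.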

How the results depend on the processing

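The 0 genes called by limma became 535 with DESeq2, 0 to 22 with each library left out, and 1 with wild type 1 and knockout 2 left out together. Genes at an unadjusted p under 0.05 numbered 1001 (without wild type 3) to 2004 with a library left out, and genes without overlap 4068 to 5514. The difference in the short Gps2 transcript, -0.15 percentage points, ran from -2.19 to 3.699 and was above 0 without wild type 2 (1.287), wild type 3 (0.428) or knockout 1. Genes whose effect differed from adipocytes numbered 33 to 662 with a library left out and 633 with the replicate block across both tables. Against the short diet they numbered 0 to 51, and 2 with TMM scaling; against chow 0 to 181. The cause of these moves was not tested, beyond the fewer samples in each fit. Replicate numbers did not pair wild type with knockout (correlations -0.465, -0.576 and 0.346), and with the replicate block limma called 0 genes, with 493 higher and 875 lower at an unadjusted p under 0.05.

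Among named genes, the change of Pparg ran from -0.0301 (without knockout 3) to 0.339, Adgre1 from -0.668 to 0.0830 (without wild type 3) and Bag3 from -0.127 to 0.0180 (without wild type 3) as 1 library was left out. That of Irf1 ran from -0.158 to 0.0387 (without wild type 1), was 0.0241 without knockout 2, 0.119 without both and 0.113 without knockout 3 as well; Hspa1b was at -0.0647 without those 3. Arid5a ran from -0.0788 (without wild type 2) to 0.136. Rnd1 ran from -0.163 (without wild type 2) to 0.178, was at -0.0386 without knockout 1, and at -0.00144 with edgeR. Of the other values for named genes, 2458 kept direction and side of the threshold and 82 crossed it, nearly all with DESeq2. The alternatives that leave out these libraries together, and all that leave out libraries for the comparisons between tables, were chosen after seeing the data. Of the list medians, 45 values moved by more than the spread between replicates and 414 by less. Wild type 1 had 29445539 reads over the chosen transcripts, the fewest. A value of 1 read there is 1.54, and T cell genes and Itgad are limited by depth.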

Other observations

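Of 8 nerve and glial genes 4 were higher and 4 lower, with a median of 0.05. The groups did not overlap for 1 higher gene (12.5%, against 7.31% of all genes) and 2 lower ones (25%, against 9.13%). The higher one fell outside the rule for naming, so only the lower pair is given, and the list has no common direction. S100b, a calcium-binding protein of Schwann cells that fat cells also express, stood at 154, 202 and 110.1 in wild type and 54.4, 97.1 and 84.9 in knockout (-0.97 ± 0.37), and Tubb3, a tubulin of neurons, at 163, 61.3 and 99.5 and 0, 39.5 and 56.6 (-2.93 ± 1.53). Eosinophil markers were split, 3 higher and 3 lower, with a median of 0.16 (-0.41 without knockout 1 to 0.09 without wild type 3). The 1 whose groups did not overlap was Ear2, an eosinophil ribonuclease, which gave 329, 441 and 2205 against 227, 206 and 304 (-1.49 ± 0.69). In B cell, mast cell and mesothelial lists the groups overlapped for every measured gene.

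Further genes of small p without overlap fell in none of the lists. Poln, a DNA polymerase of repair, gave 1118, 1437 and 1009 against 487, 545 and 468 (-1.23 ± 0.17), and Ptchd4, a patched-related membrane protein, 224, 408 and 455 against 59.7, 79.8 and 69.5 (-2.31 ± 0.33). Higher genes included Snhg18, a long noncoding RNA, at 886, 814 and 822 against 1364, 1226 and 1409 (0.66 ± 0.12), and Cnpy2, a protein of the endoplasmic reticulum, at 2095, 2095 and 2258 against 3262, 2967 and 3070.3 (0.53 ± 0.10). Prrt1, a membrane protein known from synapses, gave 61.4, 58.8 and 49.3 against 162, 152 and 181 (1.53 ± 0.28), and Plppr3, a phospholipid phosphatase relative, 279, 262 and 273 against 499.8, 458 and 458 (0.79 ± 0.16). Grcc10 and Nme3 were also among the 15 higher genes of smallest p, but 53.8% and 99.6% of their transcripts lie in exons of other genes, so both are uncertain.

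In the set of genes around GPS2, Cul4b, a ubiquitin ligase scaffold, was at 1646, 1945 and 1626 against 1228, 1338 and 1419 (-0.39 ± 0.13) and Rnf8, a ubiquitin ligase that works with UBC13, at 936, 1004 and 923 against 1408, 1131 and 1113 (0.34 ± 0.14), both without overlap.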
